A study of Mus musculus with 36 samples.

Results

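Antigen-receptor segment transcripts were examined as 80 of the 138835 transcripts of a deposited count table. The table covers 2 mouse bone marrow populations, hematopoietic stem cells, or HSCs, and restricted progenitors, or RPs. The members were the transcripts whose Ensembl mouse identifier, before the dot, ran from ENSMUST00000103299 to ENSMUST00000103740, a block taken here as that of immunoglobulin and T-cell receptor segments, and whose counts summed to 10 or more over 18 libraries. They were chosen by this summed count over all libraries together, so a transcript could become a member through RP libraries alone. The block held 345 transcripts in the table. Of these, 200 had no count in any of the 18 libraries, 65 had a summed count of 1 to 9, and 80 were members. No table used here links these identifiers to genes, so which receptor chain or segment each identifier stands for was not checked, and neither were the labelled cell types and genotypes against marker genes.

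Bone marrow cells came from C57BL/6 mice aged 8 weeks. All groups, controls included, carried Cre recombinase under Vav, a driver active across blood-forming cells. Control mice were Vav-CRE: Dnmt3a+/+; Tet2+/+, Tet2KO mice were Vav-CRE:Tet2fl/fl, and the labels write Dnmt3aKO mice as Vav-CRE:Dnmt3afl/fl or +. HSCs were sorted as Lin-, cKit+, Sca1+, CD150+, CD48- cells. RPs for RNA were sorted as CD150-, CD48+ cells of the same compartment. Each library came from a pool of male and female mice whose size the labels give in more than one way, so p-values measure the spread between pools. There were 3 Control HSC, 3 Dnmt3aKO HSC, 4 Tet2KO HSC, 4 Control RP and 4 Tet2KO RP libraries. HSC libraries carry the number of their sample title, and RP libraries carry letters that only name them.

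Antigen receptors are assembled in developing B and T cells, where recombination joins variable, diversity and joining segments upstream of a constant region. Lymphocyte clones can differ in the variable segment they use, though the same segment can occur in many clones. Constant regions are shared more widely. Unrearranged constant regions can also be transcribed before recombination, and lymphoid-primed progenitors are known to begin this transcription. HSCs give rise to all blood lineages and do not carry assembled receptors of their own.

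Libraries held 3721009 to 9366421 counts. Reduced by calculation to 3721009 counts each, the 3 HSC libraries numbered 4 held 25496 to 33540 transcripts of the whole table, the other 7 HSC libraries 33584 to 44049 and the 8 RP libraries 39880 to 44910. The libraries numbered 4 held the fewest transcripts of their genotype. Tet2KO HSC replicate 4 also stood apart from every other HSC library in the antigen-receptor segment transcripts, and values are given with and without it.

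The summed level of the 80 transcripts was low in HSCs and high in RPs. Levels are counts per 1000000 (CPM) of the library size scaled by the trimmed mean of M-values (TMM). The sum was 19.4, 21.9 and 37.0 CPM in Control HSC replicates 2, 3 and 4. It was 20.7, 17.0 and 33.4 CPM in Dnmt3aKO HSC replicates 1, 2 and 4. Tet2KO HSC replicates 1, 2 and 3 lay at the same level, with 26.4, 25.5 and 16.6 CPM, and replicate 4 was at 708.5 CPM. Control RPs a, b, c and d held 3678, 3545, 11202 and 977.1 CPM. Tet2KO RPs a, b, c and d held 6315, 4328, 4842 and 23995 CPM. All RP libraries lay above all HSC libraries. The lowest RP library was 26.4 times the highest of the 9 HSC libraries other than Tet2KO HSC replicate 4, and 1.38 times that replicate.

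**Figure D1:**
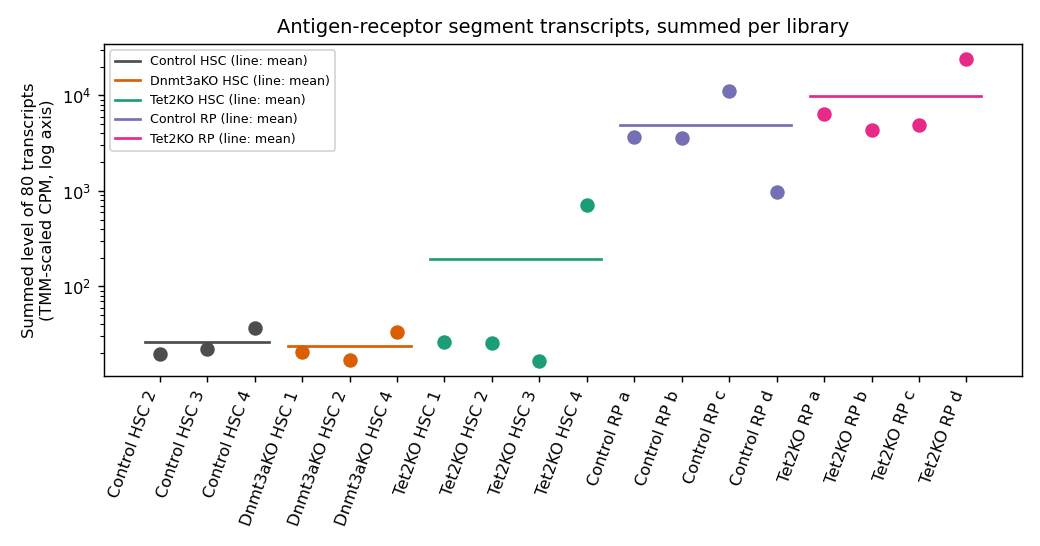
Summed level of the 80 antigen-receptor segment transcripts in each of 18 libraries, in TMM-scaled CPM on a log axis, with a point per library and a line at each group mean. The 9 HSC libraries other than Tet2KO HSC 4 lie between 16.6 and 37.0 CPM, Tet2KO HSC 4 lies at 708.5 CPM, and the RP libraries lie between 977.1 and 23995 CPM.

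Group means were 26.1 ± 9.5 CPM (SD, n = 3) in Control HSCs, 23.7 ± 8.62 (n = 3) in Dnmt3aKO HSCs and 194.2 ± 343 (n = 4) in Tet2KO HSCs. Without replicate 4 the Tet2KO HSC mean was 22.8 CPM. In RPs the mean was 4851 ± 4410 CPM in Controls and 9870 ± 9450 in Tet2KO (n = 4 each). Without Tet2KO RP d the Tet2KO RP mean was 5161 CPM, and without Control RP c the Control RP mean was 2733 CPM. The difference between the RP means was therefore within the spread of the libraries. These transcripts took 0.00173% to 0.00297% of all counts in the 9 HSC libraries, 0.0641% in Tet2KO HSC replicate 4 and 0.101% to 2.23% in RPs. In bulk RNA, a change in the number of cells that carry a transcript and a change in the amount per cell cannot be told apart.

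The number of members seen differed less between the cell types than their summed level did. HSC libraries had a count for 16 to 35 of the 80 members, and RP libraries for 36 to 58. At equal depth the ranges were 14.6 to 26.4 and 33.1 to 55.5 members. No member reached 10 CPM in 8 of the 10 HSC libraries, Control HSC replicate 4 had 2 that did and Tet2KO HSC replicate 4 had 5, whereas 5 to 23 members did in each RP library. Over both cell types, 70 members had their highest level in an RP library and 10 in an HSC library. The summed count that defines members could be reached through RP libraries alone. Of the 80 members, 19 had no count in the 9 HSC libraries other than Tet2KO HSC replicate 4, and 0 had none in RPs. These numbers are therefore descriptions, and the split of highest libraries was not taken over all transcripts.

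A single transcript, ENSMUST00000103410.2, took most of the member reads of every RP library. Its share was 63.5% to 71.9% of member levels in Control RPs and 55.9% to 71.3% in Tet2KO RPs. It was at 2545, 2434, 7114 and 702.6 CPM in Control RPs a to d. In Tet2KO RPs a to d it was at 3632, 2418, 3452 and 13500 CPM. RP groups overlapped, with Control RP c above 3 of the Tet2KO libraries. In Control HSC replicates 2, 3 and 4 it was at 6.96, 6.10 and 11.2 CPM, in Dnmt3aKO HSC replicates 1, 2 and 4 at 5.27, 6.59 and 6.49 CPM, and in Tet2KO HSC replicates 1, 2 and 3 at 5.54, 4.36 and 4.24 CPM. Tet2KO HSC replicate 4 was at 430.9 CPM. The transcript was therefore seen in every library, and no HSC library reached the lowest RP. It had the highest mean of all members in each of the 5 groups, as CPM not corrected for transcript length.

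ENSMUST00000103426.2 was the other member at 10 CPM or more in all 8 RP libraries. It was at 106.7, 164.9, 394.0 and 37.8 CPM in Control RPs a to d. In Tet2KO RPs a to d it was at 424.3, 365.8, 305.1 and 1027 CPM, so Control RP c lay inside the Tet2KO range and the other 3 Control RPs lay below it. In HSCs it was highest in the library numbered 4 of each genotype. Control HSC replicates 2, 3 and 4 were at 3.30, 3.13 and 12.6 CPM, Dnmt3aKO HSC replicates 1, 2 and 4 at 1.28, 1.28 and 5.90 CPM, and Tet2KO HSC replicates 1 to 4 at 1.34, 0.605, 2.30 and 29.4 CPM. These are the libraries with the fewest transcripts at equal depth, and the part of that in the result was not tested. Counts of ENSMUST00000103426.2 were 4.19% to 15.1% of those of ENSMUST00000103410.2 in RPs, 6.83% in Tet2KO HSC replicate 4 and 13.9% to 112% in the other HSC libraries.

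**Figure D2:**
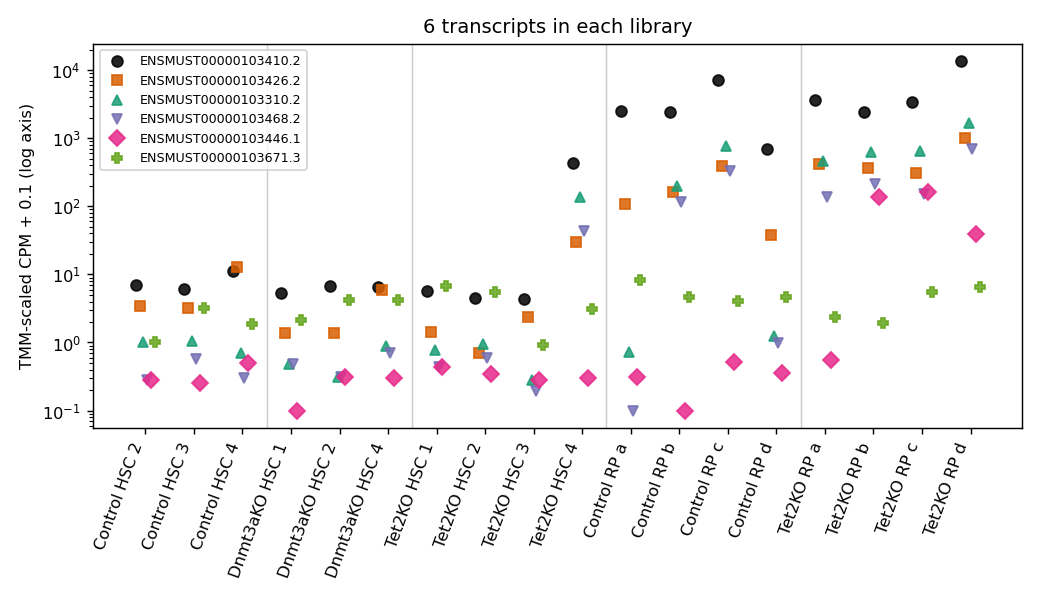
Levels of 6 transcripts in each library, as TMM-scaled CPM plus 0.1 on a log axis, with 1 symbol per transcript. ENSMUST00000103410.2 and ENSMUST00000103426.2 are high in all RP libraries, ENSMUST00000103310.2 and ENSMUST00000103468.2 are high in the same 6 RP libraries and in Tet2KO HSC 4, ENSMUST00000103446.1 is high in 3 Tet2KO RP libraries, and ENSMUST00000103671.3 stays between 0.830 and 8.24 CPM.

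A pair of members was high in the same libraries. ENSMUST00000103310.2 was at 0.634, 196.5, 759.0 and 1.14 CPM in Control RPs a to d, and ENSMUST00000103468.2 was at 0, 116.5, 329.9 and 0.885 CPM. Both were thus absent or near 0 in Control RPs a and d, where ENSMUST00000103410.2 stood at 2545 and 702.6 CPM. In Tet2KO RPs a to d ENSMUST00000103310.2 was at 457.6, 630.0, 647.5 and 1653 CPM, and ENSMUST00000103468.2 at 135.9, 211.5, 151.5 and 687.1 CPM. Every Tet2KO RP library held both. In the 9 HSC libraries they reached at most 0.939 and 0.590 CPM, and in Tet2KO HSC replicate 4 they were at 138.6 and 42.9 CPM. The pattern was not particular to this pair. ENSMUST00000103430.1 was at 14.7 to 73.0 CPM in the same 6 RP libraries and at 2.75 and 0.632 CPM in Control RPs a and d. Its highest HSC level, 6.85 CPM, was also in Tet2KO HSC replicate 4. The pair and this transcript were picked after their values were seen.

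RP libraries differed in the transcripts that followed these by read count. After ENSMUST00000103410.2, 6 different transcripts had the most reads over the 8 RP libraries. The next was ENSMUST00000103403.2 in Control RP a (319.9 CPM), ENSMUST00000103303.2 in Control RP b (262.6 CPM) and ENSMUST00000103515.1 in Control RP d (165.8 CPM). In Tet2KO RP a it was ENSMUST00000103314.2 (852.4 CPM) and in Tet2KO RP d ENSMUST00000103378.2 (4434 CPM). ENSMUST00000103310.2 held that place in Control RP c and Tet2KO RPs b and c. The next transcript by reads was thus shared by 3 libraries, and each of the other 5 transcripts held that place in 1 library. ENSMUST00000103403.2, ENSMUST00000103303.2 and ENSMUST00000103515.1 were named after their values were seen.

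**Figure D3:**
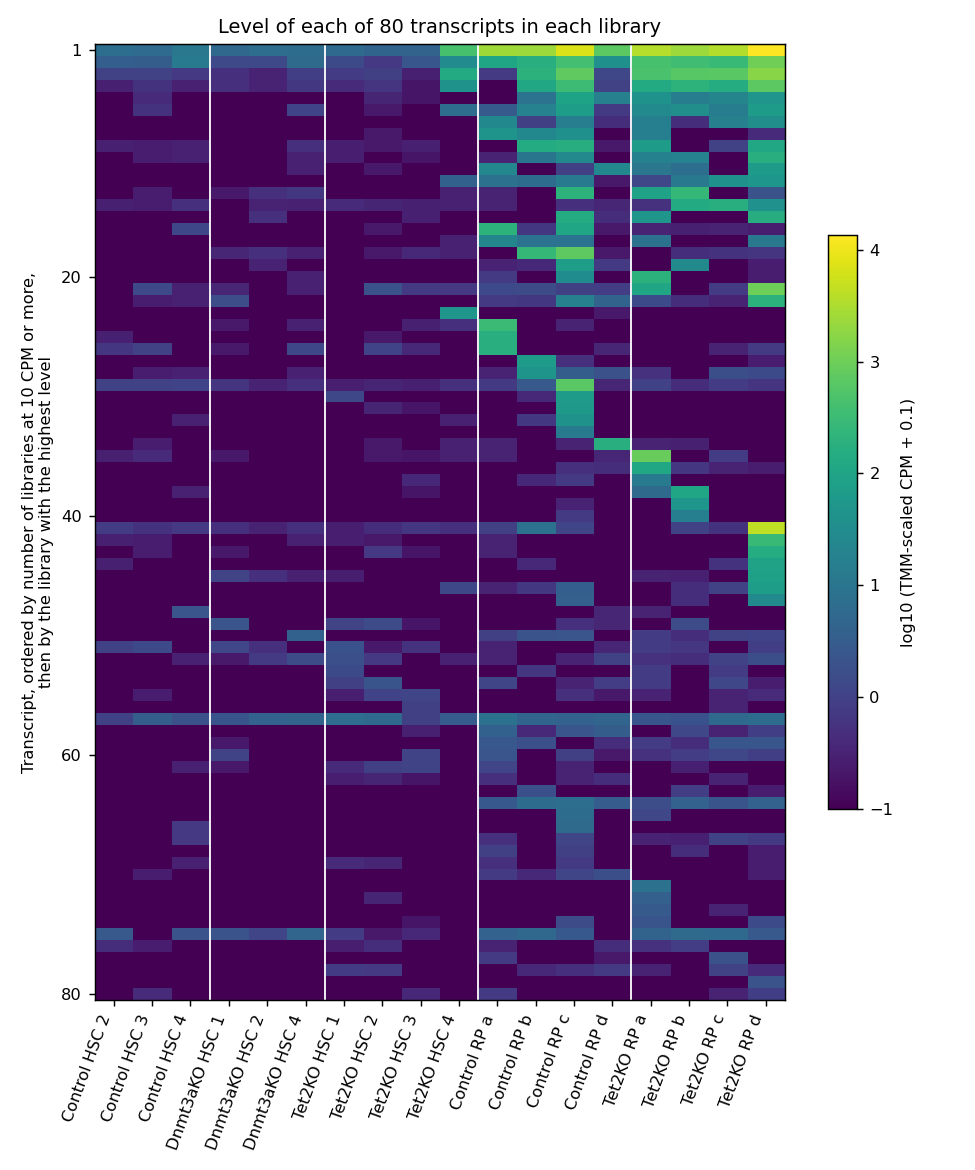
Level of each of the 80 transcripts (rows) in each of 18 libraries (columns), as log10 of TMM-scaled CPM plus 0.1, with white lines between groups. Rows are ordered by the number of libraries at 10 CPM or more, and below the few shared rows at the top the bright cells step from library to library, since 25 transcripts reached 10 CPM in 1 library only.

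Many members were concentrated in 1 library. Of the 80, 28 had at least 90% of their level in 1 library and 43 had at least 50%. Among all 53849 transcripts of the table with a summed count of 10 or more, 278 had at least 90% in 1 library, or 0.516%, against 35.0% of the members. The share for the members was higher at higher counts. With summed counts of 100 or more, 20 of 47 members (42.6%) had at least 90% of their level in 1 library, against 28 of 26004 transcripts of the table, those 20 included. With summed counts of 10 to 29 the values were 3 of 19 members (15.8%) and 225 of 13783 transcripts. These are descriptions of the libraries, with no test.

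**Figure D4:**
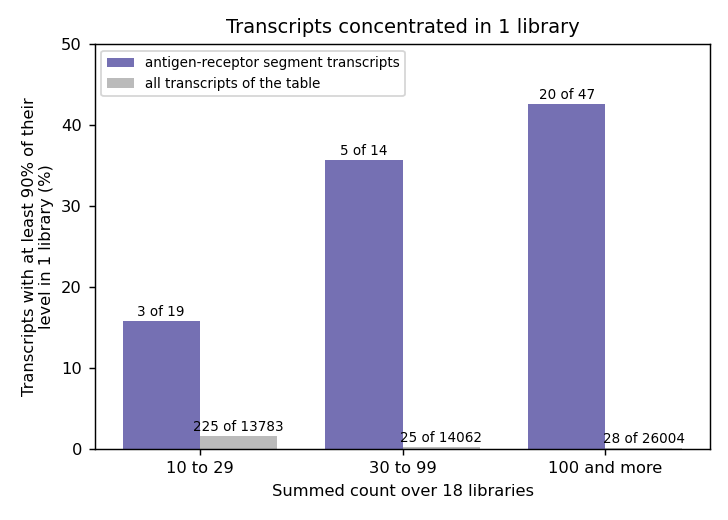
Percentage of transcripts with at least 90% of their summed level in 1 of 18 libraries, by summed count, for antigen-receptor segment transcripts and for all transcripts of the table. Numbers above the bars give the transcripts concerned and their total, and the 20 of 47 members with 100 or more counts make up most of the 28 such transcripts in the table.

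The clearest case was ENSMUST00000103378.2, with 27291 of its 27365 counts in Tet2KO RP d. It was at 4434 CPM there, at 0 to 0.932 CPM in the other 3 Tet2KO RPs, and at 0.845, 8.54, 1.06 and 0 CPM in Control RPs a to d. In the 10 HSC libraries it stayed at 0.168 to 0.732 CPM. ENSMUST00000103314.2 had 3821 of 3834 counts in Tet2KO RP a, where it was at 852.4 CPM, and no more than 0.681 CPM anywhere else. ENSMUST00000103386.2 was at 651.6 CPM in Control RP c and at 2.56 CPM or less in the other 17 libraries. ENSMUST00000103363.1 was at 297.2 CPM in Tet2KO RP d and at 0.211 CPM or less elsewhere. In each of these 4, a single pool held nearly all counts and the other pools of the same genotype and cell type held almost none.

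The 28 concentrated members were spread over both RP groups. Of these, 11 had their highest library among Control RPs, 16 among Tet2KO RPs and 1 in Tet2KO HSC replicate 4. Control RPs a to d held 3, 1, 6 and 1 of them, and Tet2KO RPs a to d held 6, 3, 0 and 7. The libraries with the highest summed levels, Control RP c and Tet2KO RP d, held 6 and 7 of them, and these 2 libraries had the most members at 10 CPM or more, with 23 each.

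Counted by the number of libraries at 10 CPM or more, 33 members reached that level in none, 25 in 1 library, 10 in 2 or 3, 10 in 4 to 7 and 2 in 8 or more. The limit of 10 CPM was set after the values were seen. Only ENSMUST00000103410.2 and ENSMUST00000103426.2 reached it in all 8 RP libraries. Both RP genotypes held 18 of the members that reached it, while 13 reached it in Control RPs and in no other group, and 15 in Tet2KO RPs and in no other group. Members that reached it had identifiers from 103302 to 103561. The 131 block transcripts with higher identifiers held 10 members, none above 8.24 CPM, and the 214 with identifiers up to 103561 held the other 70.

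Tet2KO HSC replicate 4 had 5 members at 10 CPM or more. These were ENSMUST00000103410.2 (430.9 CPM), ENSMUST00000103310.2 (138.6 CPM), ENSMUST00000103368.2 (48.3 CPM), ENSMUST00000103468.2 (42.9 CPM) and ENSMUST00000103426.2 (29.4 CPM). All but ENSMUST00000103368.2 were also high in most RP libraries. Their levels in this replicate were 9.63%, 25.5%, 21.0% and 8.33% of the RP mean for ENSMUST00000103410.2, ENSMUST00000103310.2, ENSMUST00000103468.2 and ENSMUST00000103426.2. ENSMUST00000103368.2 had 240 counts in this library, 1 count in Control RP d and none in the other 16 libraries. The library therefore held members shared with RPs and 1 member that no RP library held at more than 1 count.

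Nearly all members with at least 500 counts in 1 RP library also had a few counts in HSCs, unevenly spread over the libraries. Below that limit, members at 10 CPM or more in RPs could have none in the 9 HSC libraries other than Tet2KO HSC replicate 4. Examples were ENSMUST00000103405.1 and ENSMUST00000103510.1, with 653 and 553 counts in the 8 RP libraries, both named after their values were seen. Of the 80 members, 27 had at least 500 counts in 1 RP library, and 26 of these had a count in the 9 HSC libraries other than Tet2KO HSC replicate 4. Their counts in the 9 HSC libraries were 0% to 3.51% of those in the 8 RP libraries, with a median of 0.264%. The total counts were 58930516 in the 9 HSC and 41499569 in the 8 RP libraries. For ENSMUST00000103410.2 the share was 0.188%, with 353 counts against 187354. The members ran from 0 to 9 of the 9 HSC libraries with a count, and ENSMUST00000103558.2, named after its values were seen, had 12 of its 14 HSC counts in 1 library. For ENSMUST00000103378.2, which had its counts in 1 RP pool, it was 0.0951%, with 26 counts spread over all 9 HSC libraries. The 13 of the 27 members that had at least 90% of their level in 1 library had the same median of 0.264%. As a share of its RP counts, ENSMUST00000103410.2 thus lay below the median of members found mainly in 1 library. Where these low counts come from was not tested.

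**Figure D5:**
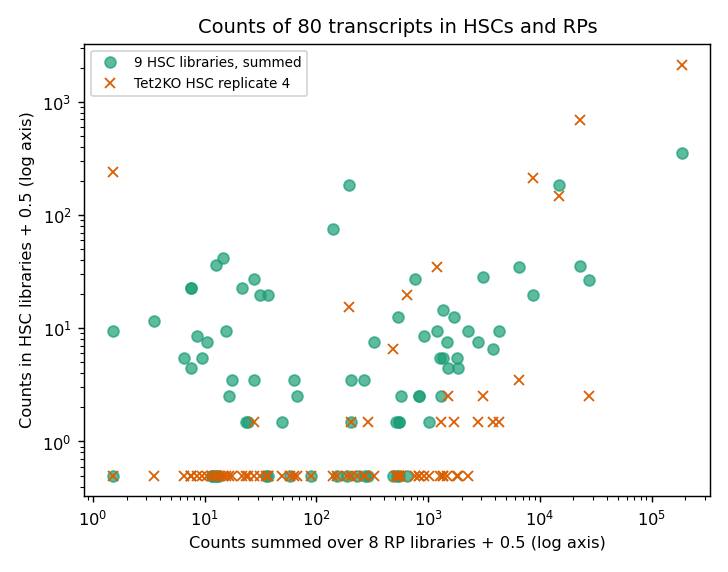
Counts of each of the 80 transcripts in HSC libraries against counts summed over the 8 RP libraries, both plus 0.5 on log axes, with circles for the 9 HSC libraries summed and crosses for Tet2KO HSC replicate 4. Circles stay at or below 353 counts up to an RP sum of 187354, and the crosses for ENSMUST00000103410.2 and ENSMUST00000103310.2 lie above all circles, at 2139 and 688 counts.

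Control RPs were compared with Control HSCs to ask how the transcripts differ between the cell types. Of the 80 members, 25 passed the filter on low counts and were tested, and 55 were not tested, 28 of which reached 10 CPM in some library. None of the 28 concentrated members was tested, because the filter requires counts in several libraries. With edgeR's quasi-likelihood test and Benjamini-Hochberg adjustment over 26820 transcripts, 4 members were higher in Control RPs and 0 lower, where 0.802% of all transcripts tested were higher and 1.1% lower. The libraries of the groups did not overlap, with RPs higher, for 10 of the 25, against 9.88% of all transcripts tested. A member could pass the filter through the RP libraries alone, so the counts called and not overlapping are given as descriptions. The 4 called were ENSMUST00000103410.2, ENSMUST00000103548.2, ENSMUST00000103426.2 and ENSMUST00000103406.1. ENSMUST00000103406.1, with at most 2 counts in any HSC library, and ENSMUST00000103548.2, with none, passed the filter through RP libraries alone.

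ENSMUST00000103410.2 averaged 3200 ± 2740 CPM in Control RPs (SD, n = 4) against 8.08 ± 2.72 CPM in Control HSCs (n = 3). On the log2 scale Control RPs were 8.63 higher (SE 1.71, adjusted p = 0.00939 by edgeR). ENSMUST00000103548.2 had no count in any of the 10 HSC libraries. In Control RPs a to d it was at 2.54, 6.27, 6.98 and 3.03 CPM, and in Tet2KO RPs a to d at 1.56, 3.91, 2.04 and 4.06 CPM. It was low but even over the RP pools. Against a floor of 3 counts over the Control HSC libraries, Control RPs were at least 26.43-fold higher, with adjusted p = 0.00911 by edgeR, though it passed the filter through RP libraries alone. Against the same floor over Tet2KO HSCs, Tet2KO RPs were at least 28.97-fold higher, with adjusted p = 0.0051 by edgeR. Floors cover counting error only.

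The count in Control cells changed with single libraries. It was 1 without Control HSC replicate 2, 1 without replicate 3, 2 without replicate 4 and 2 without Control RP c, and 7 without Tet2KO HSC replicate 4. Calls over all transcripts fell as well, from 509 to 264 without Control HSC replicate 2. ENSMUST00000103410.2 missed the threshold in 2 of 26 alternatives, without Control HSC replicate 2 and without replicate 3, where its log2 differences of 8.53 and 8.41 were close to the 8.63 of all libraries and its adjusted p reached 0.0654. ENSMUST00000103426.2 (adjusted p = 0.0355 by edgeR) missed it in 6 of 26, with adjusted p up to 0.157, and ENSMUST00000103406.1 (adjusted p = 0.0201 by edgeR) in 7 of 26, with adjusted p up to 0.101.

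Tet2KO RPs were compared with Tet2KO HSCs in the same way, and 10 members were higher and 0 lower in RPs, with 0.776% of all transcripts tested higher and 1.03% lower. The groups did not overlap, with RPs higher, for 13 of the 25 members tested, against 4.54% of all transcripts tested. As in Control cells, a member could pass the filter through RP libraries alone, so the counts called and not overlapping are given as descriptions. The 4 members called in Control cells were among the 10. ENSMUST00000103426.2 averaged 531 ± 335 CPM in RPs against 8.42 ± 14 CPM in HSCs of this genotype (SD, n = 4 each), a log2 difference of 6.04 with SE 1.07 (adjusted p = 0.00388 by edgeR). ENSMUST00000103446.1 averaged 85.4 ± 77.7 CPM in these RPs against 0.241 ± 0.0677 CPM in these HSCs, a log2 difference of 8.37 with SE 1.14 (adjusted p = 3.38e-04 by edgeR). This member entered the test through Tet2KO RPs b, c and d alone, so its adjusted p is given as a description. ENSMUST00000103410.2 had a log2 difference of 5.70 with SE 1.30 (adjusted p = 0.0261 by edgeR), below the 8.63 of Control cells. Without Tet2KO HSC replicate 4 it was 10.3 (adjusted p = 1.27e-05 by edgeR), above that of Control cells. In 6 of 26 alternatives it missed the threshold, with adjusted p up to 0.094. With all libraries, the difference between the genotypes in this value was not past the threshold (adjusted p = 0.982 by edgeR). The count was 3 without Tet2KO RP d, 6, 4 and 4 without Tet2KO HSC replicates 1, 2 and 3, and 3 in a fit of only these 2 groups. Calls over all transcripts fell as well, from 485 to 296 without Tet2KO RP d.

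Among Tet2KO HSCs, ENSMUST00000103310.2 was at 138.6 CPM in replicate 4 and at most 0.847 CPM in the other replicates. ENSMUST00000103468.2 was at 42.9 CPM in replicate 4 and at most 0.484 CPM in the others. ENSMUST00000103310.2 and ENSMUST00000103468.2 missed the threshold in Tet2KO cells, with log2 differences of 4.61 and 4.81 (adjusted p = 0.252 and 0.181 by edgeR). Without the 3 HSC libraries numbered 4 they passed it, with adjusted p of 0.00587 and 0.00916 by edgeR. That fit also left out Control and Dnmt3aKO HSC replicates 4, so it does not single out Tet2KO HSC replicate 4. Each member passed in 3 of 26 alternatives. Over all alternatives the adjusted p lay between 0.00587 and 0.458 for the former and between 0.00916 and 0.414 for the latter.

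The comparison of the 2 RP genotypes asks how loss of Tet2 changes these transcripts in progenitors. Of the 25 members tested, 1 was higher and 0 lower in Tet2KO RPs, with 0.0932% of all transcripts tested higher and 0.041% lower. It was also the 1 member whose RP groups did not overlap, against 2.7% of all transcripts tested. This was ENSMUST00000103446.1, found at 0.446, 139.0, 162.4 and 39.6 CPM in Tet2KO RPs a to d and at 0.211, 0, 0.423 and 0.253 CPM in Control RPs a to d (log2 difference 8.37, SE 1.17, adjusted p = 0.00142 by edgeR). Tet2KO RPs b, c and d were high, and Tet2KO RP a, with 2 counts, lay beside the Controls. Control RP c also had 2 counts, so only library scaling (0.446 against 0.423 CPM) kept the groups from overlapping. In HSCs it reached at most 0.400 CPM in any genotype. It passed the filter through Tet2KO RPs b, c and d alone, where it was high, so its adjusted p is given as a description. In fits without Tet2KO RP b, c or d, and of the RP groups alone, it did not pass the filter on low counts, and without Tet2KO RP b or c the 1 call was ENSMUST00000103486.1 in its place.

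Neither the members abundant in all RPs nor the pair absent or near 0 in Control RPs a and d was called between the RP genotypes. In Tet2KO against Control RPs the log2 difference of ENSMUST00000103410.2 was 0.85 with SE 1.07 (adjusted p = 1 by edgeR), and -0.0148 without Tet2KO RP d. ENSMUST00000103426.2 had 1.59 (SE 0.87, adjusted p = 1), between 1.05 and 2.37 over all alternatives. ENSMUST00000103310.2 and ENSMUST00000103468.2 had 1.82 and 1.41 (SE 1.5 and 1.38, adjusted p = 1 for both). Of the 80 members, the mean was higher in Tet2KO RPs for 48 and lower for 32. Without Tet2KO RP d the numbers were 38 higher and 41 lower, and without both Tet2KO RP d and Control RP c they were 42 higher and 34 lower, so the direction of the majority depended on the library with the highest summed level in each group. ENSMUST00000103486.1 was at 104.6, 0, 0.681 and 985.4 CPM in Tet2KO RPs a to d and at most 1.42 CPM in Control RPs, and missed the threshold in edgeR (log2 difference 8.01, SE 1.73, adjusted p = 0.0919) but passed it in DESeq2. It was named after its values were seen.

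Among HSCs, no member was called between genotypes by edgeR. In Tet2KO against Control HSCs 0 of 25 passed the threshold, with 0.198% of all transcripts called, 3 members at an unadjusted p under 0.05 and 0 called by DESeq2. In Dnmt3aKO against Control HSCs 0 passed, with 0.0149% of all transcripts called, 1 member at an unadjusted p under 0.05 and 0 by DESeq2. In Dnmt3aKO against Tet2KO HSCs 0 passed, with 0.138% called, 4 members at an unadjusted p under 0.05 and 2 lower in Dnmt3aKO HSCs by DESeq2. The 2 were ENSMUST00000103310.2 and ENSMUST00000103410.2, both at their highest HSC level in Tet2KO HSC replicate 4. An interaction term, which sets the genotype difference in RPs against that in HSCs, was called for 0 members by edgeR (0% of all transcripts), with 2 at an unadjusted p under 0.05 and 1, ENSMUST00000103446.1, by DESeq2. Of all transcripts tested, 11.2%, 7.75%, 11% and 5.35% had an unadjusted edgeR p under 0.05 in these comparisons, in the order given. DESeq2 called 673, 174, 536 and 13 of all transcripts, in the same order.

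The HSC difference of ENSMUST00000103410.2 rested on 1 library. In Tet2KO against Control HSCs the fitted log2 difference was 3.78 with SE 1.38 (adjusted p = 0.278 by edgeR), while Tet2KO HSC replicates 1 to 3 lay at 4.24 to 5.54 CPM, below the 6.10 to 11.2 CPM of Control HSCs. In Dnmt3aKO against Control HSCs it was -0.40 with SE 1.36 (adjusted p = 0.996 by edgeR). These comparisons share the Control HSC libraries.

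Some members differed little between the cell types or stayed low in both. ENSMUST00000103671.3 had counts in all 18 libraries, at 1.95 ± 1.11 CPM in Control HSCs, 3.41 ± 1.17 in Dnmt3aKO HSCs (n = 3 each), 4.00 ± 2.61 in Tet2KO HSCs, 5.34 ± 1.95 in Control RPs and 4.01 ± 2.31 in Tet2KO RPs (n = 4 each). Its groups overlapped in Tet2KO cells, with a log2 difference of 0.01 between RPs and HSCs and SE 0.62 (adjusted p = 0.999 by edgeR). In Control cells its RPs, at 4.02 to 8.24 CPM, lay above its HSCs, at 0.915 to 3.13 CPM. The log2 difference there was 1.44 with SE 0.71 (adjusted p = 0.357 by edgeR). ENSMUST00000103299.2 was also low in both cell types, at 1.52 ± 1.35 CPM in Control HSCs, 2.5 ± 1.8 in Dnmt3aKO HSCs, 0.267 ± 0.292 in Tet2KO HSCs, 2.92 ± 2.22 in Control RPs and 4.56 ± 1.49 in Tet2KO RPs. In Tet2KO cells its RPs, at 2.60 to 5.96 CPM, lay above its HSCs, at 0 to 0.672 CPM, with a log2 difference of 3.98 and SE 1.19 (adjusted p = 0.114 by edgeR). In Control cells its groups overlapped. Both transcripts were named after their values were seen. Of the 80 members, 6 had a higher mean in the 9 HSC libraries than in RPs, all at 0.686 CPM or less in HSCs. Of the 10 members with their highest level in an HSC library, the 9 other than ENSMUST00000103368.2 peaked at 0.830 to 3.74 CPM.

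The limit of 10 summed counts divided a continuous range. The 10 members just inside it had 10 to 14 counts, seen in 1 to 7 libraries with a median of 3. The 15 block transcripts just outside it, with 5 to 9 counts, were seen in 1 to 7 libraries with a median of 3.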

How the data were processed

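The authors deposited 1 table of raw counts for 138835 Ensembl transcripts in 36 columns, whole numbers per the file's values. Per the submitters' processing notes, tools included STAR 2.0.4, HTSeq 0.8.0, edgeR 3.9 and featureCounts with build mm10. No source used here states which of them counted reads, whether strand was used or how shared exons were handled, so counts of near-identical segments and overlapping genes are uncertain. Of the columns, 18 matched no sample and were not used. HSC columns carry no cell type and were taken as HSCs because the others carry the RP name. RP columns, numbered unlike the titles, were assigned by group. The 18 ATAC-seq samples were not analysed here.

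Transcripts passing filterByExpr (minimum count 10, minimum total 15) were scaled by TMM and fitted over all 18 libraries with edgeR 4.0.16 in R 4.3.3 (quasi-likelihood, group only). The fit was also run on simulated data in which a change applied to all libraries of a group alike. Those data therefore do not show how the fit treats transcripts concentrated in 1 library. Adjusted p below 0.05 counted as called. DESeq2 1.42.0, other scaling, filters and sets of libraries were alternatives. Named transcripts were those with the highest mean per group, up to 2 called per direction and comparison by smallest adjusted p, and the 4 with the largest sums among those concentrated in 1 library, plus those said to be chosen later. Members and lists were chosen with earlier results of these data known. Planned marker lists, sequences and checks of Dnmt3a and Tet2 need gene names and were not run.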

Additional observations from a re-analysis of the deposited data

Results flagged for a closer look

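In groups of 4 libraries, a value was singled out when its gap to the nearest other library exceeded Dixon's critical share of the group's range, which chance alone gives in about 1 of 20 groups. Of 57 such groups examined, 22 had a library singled out. The transcripts examined include ones chosen because 1 library held most of their level, so this number is a description and is not set against chance. Groups of 3 were not examined.

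Tet2KO HSC replicate 4 stood apart with a summed level of 708.5 CPM, and with ENSMUST00000103410.2 at 430.9, ENSMUST00000103310.2 at 138.6, ENSMUST00000103368.2 at 48.3, ENSMUST00000103468.2 at 42.9 and ENSMUST00000103426.2 at 29.4 CPM. Tet2KO RP d stood apart with a summed level of 23995 CPM, and with ENSMUST00000103410.2 at 13500, ENSMUST00000103378.2 at 4434, ENSMUST00000103310.2 at 1653, ENSMUST00000103426.2 at 1027, ENSMUST00000103486.1 at 985.4, ENSMUST00000103468.2 at 687.1 and ENSMUST00000103363.1 at 297.2 CPM. In Tet2KO RP a ENSMUST00000103314.2 was at 852.4 CPM. In Control RPs, ENSMUST00000103386.2 was at 651.6 CPM in c, ENSMUST00000103403.2 at 319.9 CPM in a and ENSMUST00000103515.1 at 165.8 CPM in d. At low levels, the highest library of the group stood apart for ENSMUST00000103378.2 in Control RP b (8.54 CPM), ENSMUST00000103671.3 in Control RP a (8.24 CPM), ENSMUST00000103363.1 in Control RP a (0.211 CPM, 1 count) and ENSMUST00000103368.2 in Control RP d (0.126 CPM, 1 count).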

How the results depend on the processing

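Leaving out 1 library at a time gave 1 to 7 members called in Control RPs against HSCs, 3 to 12 in Tet2KO RPs against HSCs and 0 to 1 in Tet2KO against Control RPs, with 20 to 34 members tested. Calls over all transcripts ran from 264 to 701, 296 to 591 and 27 to 46 in these fits. The other 4 comparisons gave 0 in each of these fits. Without filterByExpr all 80 were tested, and the counts were 7, 16 and 3 (1 higher and 2 lower in Tet2KO RPs), with 426, 396 and 39 of all transcripts called. DESeq2 called 14 members in Control RPs against HSCs, 2 in Tet2KO against Control RPs, 2 in Dnmt3aKO against Tet2KO HSCs and 1 for the interaction. Its calls over all transcripts rose as well, to 1500, 117, 536 and 13, from 509, 36, 37 and 0 by edgeR. Fitting only the groups compared gave 3 in Tet2KO RPs against HSCs and 0 in Tet2KO against Control RPs, with 415 and 78 of all transcripts called. Leaving out Tet2KO HSC replicate 4 and Tet2KO RP d together, chosen after seeing the data, gave 7 in Control RPs against HSCs and 0 in Tet2KO against Control RPs. Over all transcripts, 600 and 42 were called there. The log2 difference of ENSMUST00000103410.2 in Tet2KO against Control RPs lay between -0.0148 and 1.6 over the fits that left out 1 library, and changed sign without Tet2KO RP d (-0.0148) and without both libraries (-0.00684).

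With at least 3 counts, the mean number of members detected was 10.3 in Control, 9.67 in Dnmt3aKO and 13.2 in Tet2KO HSCs, and 31.2 in Control and 32.5 in Tet2KO RPs. With at least 50% of the level in 1 library, 43 members were counted.

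HSC libraries of different genotype with the same number had residual correlations of 0.039 to 0.251, over 0.1 in 3 of 8 pairs. These were the 3 pairs among the libraries numbered 4 (0.2, 0.229 and 0.251), so these libraries resembled each other. What they share was not tested. Of 10 libraries, 5 lay closest to their own number, and the share that chance would give was not computed. The main fit did not take the numbers to pair the libraries. HSC libraries alone gave 0 members called with a replicate block and 0 without it, with 4 tested. Over all transcripts the block moved calls from 15 to 10 in Tet2KO against Control HSCs, 11 to 8 in Dnmt3aKO against Tet2KO HSCs, and left 0 in Dnmt3aKO against Control HSCs. RP columns carry numbers that are not those of the titles, and 3 of these occur in both genotypes, joining Control RPs a, c and d to Tet2KO RPs a, b and d. Residual correlations were -0.054 to 0.054 in these 3 pairs and -0.093 to 0.086 in 14 pairs of an HSC and an RP library with the same number, so these numbers were not taken to pair libraries either. In fits chosen after seeing the data, these 6 RP libraries gave 0 members called with a replicate block and 0 without it, with 19 tested. All 18 libraries with a replicate block by column number gave 2 in Control RPs against HSCs, 6 in Tet2KO RPs against HSCs, 1 in Tet2KO against Control RPs and 0 in the other 4 comparisons. Calls over all transcripts were 407, 375 and 34 in those with members called. Depth limits members near 10 summed counts, where 1 count was 0.126 CPM in Control RP d and 0.211 CPM in Control RP a.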
